A study of Mus musculus with 12 samples.

Results

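The T cell receptor alpha and delta locus of the mouse was described from 91 gene areas, out of 37544 in the whole table. They were chosen by name and place alone: every area on chromosome 14 whose symbol starts with Trav, Traj, Trac, Trd, Tcra or Tcrd. Of the 91, 72 were V alpha segments, 5 V delta segments, 2 D delta segments, 2 J delta segments, 1 the C delta gene, 6 J alpha segments and 1 the C alpha gene. The other 2 were spans of the loci themselves: Tcra, 1796231 bp, and Tcrd, 213125 bp. On build mm9 the locus ran from base 53047641 to base 54843872 of chromosome 14. Like names on other chromosomes (2 areas, Trdn and Trdmt1) were left out. RefSeq's gene table for GRCm38.p6 held all 91 gene identifiers and served for names alone. By gene identifier the same table placed 204 segments in the locus, 113 of them under provisional names in the file, and these were used where stated.

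The assay was DNA immunoprecipitation sequencing: an antibody recovers modified fragments from sheared, single-stranded DNA, and the recovered fragments are sequenced. Mouse naive T cells and T helper cells of the kinds Th1, Th2, iTreg (induced regulatory) and Th17 each gave 1 library with an antibody against 5-methylcytosine (5mC) and 1 with an antibody against 5-hydroxymethylcytosine (5hmC, the product of Tet enzymes acting on 5mC). Th17 cells also gave 1 library of input DNA, which saw no antibody, and 1 with control IgG. The study worked with CD2(Cre)Tet2(f/f) mice, in which Cre expressed from CD2 sequences removes Tet2 from lymphoid cells, and with wild-type littermates on a mixed background, and the labels do not give the genotype, culture or age behind each library. Every group held 1 library, so differences between cell types are values with no replicate check. Values are the mean signal over an area, rounded to 1 decimal, and the read number behind them is unknown.

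The alpha chain of the T cell receptor is assembled in the thymus when the RAG recombinase joins 1 V alpha to 1 J alpha segment. The V segments lie far upstream, the J segments lie in a tight cluster, and the single C alpha gene follows them and is kept by every join. The delta chain's D, J and C segments are nested between the V alpha and the J alpha segments, so a V-to-J alpha join cuts them out of the chromosome together with the V and J segments between the joined ones. The excised DNA forms circles that do not replicate and are diluted when cells divide. Joining usually begins with J segments far from C alpha and can proceed to nearer ones. Antibody signal over these segments therefore reads the number of DNA copies as well as the mark on each copy, and fewer copies and less mark per copy cannot be told apart in the libraries without input DNA.

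Across all areas the median signal was 1.7 in input, 0.8 in IgG, 0.6 to 0.7 in the 5 5mC libraries and 9.9 to 12.0 in the 5 5hmC libraries. A local reference was taken from the 101 areas within 1 Mb of either end of the locus. Their medians were 1.9 in input, 0.9 to 1.2 in 5mC and, in 5hmC, 24.5 in naive, 17.0 in Th1, 14.4 in Th2, 16.6 in iTreg and 14 in Th17 cells. Marker genes of the cell types bear weakly on the labels, since a mark on DNA is not a transcript. The 5hmC signal over Il4 and Il13 was highest in Th2 cells (82.6 and 69). Over Ifng and Tbx21 it was highest in Th1 cells (22.6 and 54.8). But Il17a and Il17f were highest in the library labelled iTreg, at 31.3 and 32.8, against 8.8 and 5.3 in the library labelled Th17. Gata3, a Th2 marker, was also highest in the library labelled iTreg, at 194.9, against 75.2 in Th2 cells. Of the iTreg markers, Foxp3 was highest in the library labelled Th17 (30.9, against 25.3 in iTreg) and Il2ra in Th2 cells (70.5). Results for the libraries labelled iTreg and Th17 are therefore given under their labels and also without them. Where a V alpha segment has a near-identical copy, the placing of its reads is uncertain.

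Input DNA showed which parts of the locus were still present and readable in Th17 cells. The C alpha gene, Trac, had the highest input of all members, 2.3, which is 121% of the flanking median. The C delta gene, Trdc, lies 77.9 kb before it and had an input of 0.1, or 5.26% of the flanking median. All 4 D delta and J delta segments were at 0 in input. Of the V delta segments, Trdv1 and Trdv2-1 had 0.1, Trdv3 and Trdv4 had 0, and Trdv5, which lies inverted between C delta and the J alpha cluster, had 0.2. Averaged over its whole span, Tcrd had an input of 0.2, or 10.5% of the flanking median, whereas Tcra as a whole had 1.4, or 73.7%. The delta segments as a group thus stood low beside the alpha constant gene at their 3′ side, and the J alpha segments stood between them. Their inputs were 0.1 at Traj59 and Traj58, 1.9 at Traj47, 1.1 at Traj5, 0.9 at Traj2 and 1.0 at Traj1.

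**Figure D1:**
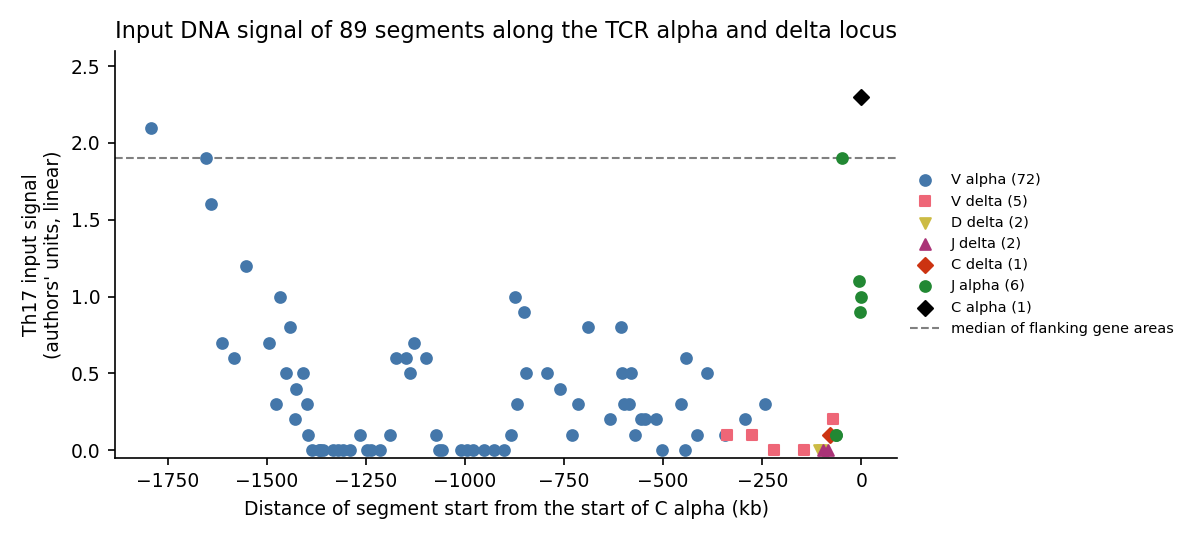
Input signal of the Th17 library (vertical axis, the authors' units on a linear scale) against distance from the start of C alpha in kb (horizontal axis) for the 89 single segments, coloured by class; the dashed line is the median of the 101 flanking areas, 1.9. C alpha lies above the line at 2.3, the D and J delta segments lie at 0, and long runs of V alpha segments lie at or near 0.

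The V alpha segments formed a pattern of their own in input. A d or n in a Trav name marks a copy within 1 of the duplicated blocks of the V region, and 42 of the 72 V alpha segments carry one. Their median input was 0.1. The 6 V alpha segments before these blocks, from Trav1 to Trav6-2, had a median of 1.4, and the 24 after them, from Trav6-3 to Trav23, had 0.3. Trav1, the outermost V segment, lies 1792.8 kb before C alpha and had an input of 2.1, or 111% of the flanking median. The next highest V alpha members were Trav2 with 1.9 and Trav3-1 with 1.6, both neighbours of Trav1. Some segments under provisional names had as much input: 2.5 at Trav7-1, and 2.5 at Trav6n-6 and 1.7 at Trav4d-2 within the duplicated blocks.

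Input was at 0 in 27 members (29.7%, against 2.58% of all areas), and 21 of these were V alpha segments, 19 of them with d or n in the name. The low segments were contiguous: 14 members in a row from Trav11d to Trav13d-3, and 10 in a row from Trav7n-5 to Trav13n-3, had an input of at most 0.1. Trav3d-2, Trav4d-3, Trav5d-2, Trav12n-1, Trav5n-2 and Trav12n-3 were at 0 in all 12 libraries, so these 6 members carry no information on either mark. For the duplicated blocks, fewer copies in the cells and reads that could not be placed uniquely cannot be told apart, because the handling of such reads is not given in the sources used here. IgG was at 0 in 61 of the 91 members, against 7328 of all 37544 areas. It exceeded input in 15 members, among them Trdc and Trdj2, where IgG was 1.1 each.

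The delta segments carried 5hmC signal in naive cells and little in the 4 other libraries. Over Trdc the 5hmC signal was 19.9 in naive, 1.9 in Th1, 2.1 in Th2, 3.3 in iTreg and 0.5 in Th17 cells. The naive value exceeded each of the others, 6.03 to 39.8 times, and the lowest library was the one labelled Th17. Trdj1, a J segment, gave 10.9 in naive, 0.9 in Th1, 1.6 in Th2, 0.5 in iTreg and 0.9 in Th17 cells. Trdj2 gave 2.9 in naive, 0 in Th1, 0.8 in Th2, and 0 in iTreg and Th17 cells. Both J segments were highest in naive cells, and their areas are 50 and 58 bp long, so few fragments lie behind each value.

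Trdd1 and Trdd2, the D segments, are 8 and 15 bp long, shorter than a DNA fragment. Trdd1 was at 0.7 in naive cells and 0.5 in Th17 cells, and at 0 in the other 3 libraries. Trdd2 had 4.5 in naive and 24.3 in Th1 cells, and 0.5 to 1.6 in the other 3 libraries. Trdd2 was thus an exception to the order seen at Trdc, with its highest value in the Th1 library.

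Among V delta segments, Trdv5 had 25 in naive, 4.9 in Th1, 2.8 in Th2, 5.4 in iTreg and 1.8 in Th17 cells. Its area is 10538 bp long on the minus strand and overlaps Traj59 and Traj58, so those 3 values are not separate. Trdv2-1 had 14.7 in naive, 0 in Th1, 0.5 in Th2, 0.7 in iTreg and 0.2 in Th17 cells. The log2 difference of Trdv2-1, the mean of the 4 libraries minus naive, was -4.97, the lowest of all members. Trdv1 had 8.9 in naive, 4.3 in Th1, 1.0 in Th2 and iTreg, and 0.5 in Th17 cells. The other two were low throughout: Trdv3 ranged from 0.2 to 2.2, highest in naive cells, and Trdv4 from 0.9 to 7.9, highest in Th1 cells. In all, 4 of the 5 V delta segments, both J delta segments and C delta had their highest 5hmC in the naive library, as did 39.0% of all areas with any 5hmC signal.

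Over the span of Tcrd the 5hmC signal was 8.7 in naive, 1.4 in Th1, 2.2 in Th2, 3.2 in iTreg and 1.2 in Th17 cells. Set against the flanking median of the same library, these are 35.5%, 8.24%, 15.3%, 19.3% and 8.57%. The naive value was the highest on either scale. Because gamma delta T cells keep delta segments, 3 of their markers were examined. The summed 5hmC signal of Sox13, Blk and Zbtb16 was 62.2 in naive, 51.9 in Th1, 51.2 in Th2, 56.7 in iTreg and 46.9 in Th17 cells, and none of them was at 0. Sums over markers of other cells were also higher in the naive library: 158.2 against 54.2 to 72.6 for the CD8 genes Cd8a and Cd8b1, and 228.3 against 94.3 to 110.8 for 4 B cell genes. The part of other cells in the naive signal was not tested.

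At the other end of the nested region, Trac kept high 5hmC in every library. Its signal was 64.5 in naive, 21.5 in Th1, 23.0 in Th2, 27.0 in iTreg and 16.7 in Th17 cells. It was highest in naive cells, by 2.39 to 3.86 times, and in all 5 cell types it stood above the flanking median, at 119% to 263% of it. The span of Tcra as a whole had 32.1, 16.7, 16.0, 18.3 and 16.9 in the same order, and its naive value was 1.75 to 2.01 times the others. The next gene past C alpha is Dad1, which encodes a subunit of the enzyme that attaches sugar chains to proteins, and it is not cut out by any join. Dad1 had 149.8 in naive, 47.4 in Th1, 66.9 in Th2, 78.4 in iTreg and 36.4 in Th17 cells, with an input of 1.8. Its log2 difference from naive, -1.45, was close in size to that of Trac, -1.56. Abhd4, which follows, had a log2 difference of -0.74, and Olfr1510, the olfactory receptor gene before Trav1, had -0.58.

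The 6 named J alpha segments fell between these ends. Traj59 had 15.7 in naive, 3.2 in Th1, 1.5 in Th2, 2.3 in iTreg and 1.2 in Th17 cells. Traj58 had 13.1 in naive, 2.6 in Th1, 19.6 in Th2, 2.5 in iTreg and 1.6 in Th17 cells. Traj47 had the highest 5hmC of any member, 109.5 in naive cells, against 6.9 in Th1, 6.3 in Th2 and iTreg, and 9.1 in Th17 cells. These 3 lie 49.0 to 64.6 kb before C alpha, and in all but the Th2 value of Traj58 the naive library was the highest.

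The 3 named segments nearest to C alpha showed no such common order. Traj5 had 26.4 in naive, 8.7 in Th1, 35.8 in Th2, 7.9 in iTreg and 8.8 in Th17 cells. Traj2 had 56.8 in naive, 37.2 in Th1, 12.1 in Th2, 8.4 in iTreg and 9.8 in Th17 cells. Traj1, whose area is 28 bp long, had 25 in naive, 21.6 in Th1, 50.6 in Th2, 79.1 in iTreg and 10.2 in Th17 cells. The naive library was highest at Traj2 only, and Traj1 was the only J alpha member whose mean over the 4 libraries lay above naive, by 0.29 on the log2 scale.

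**Figure D2:**
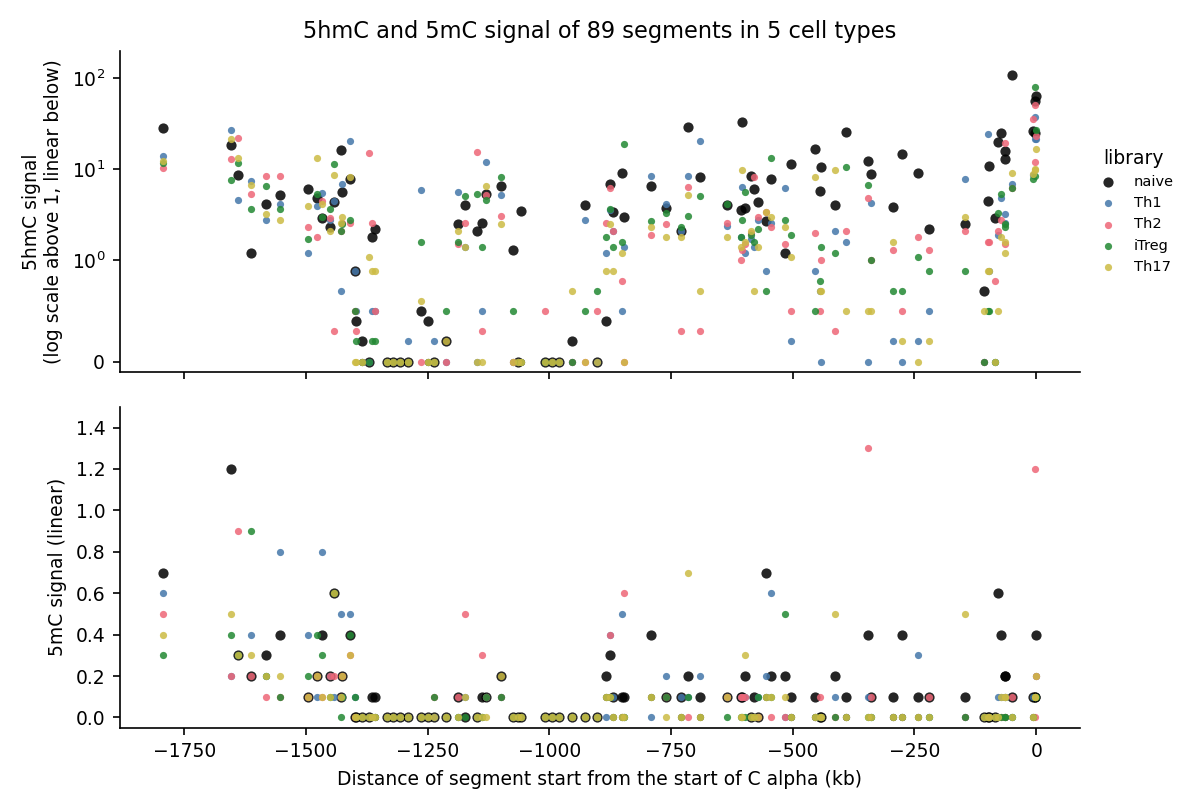
Signal of the 89 single segments in the 5hmC libraries (upper panel, logarithmic above 1 and linear below) and the 5mC libraries (lower panel, linear) against distance from the start of C alpha in kb, with naive cells in black and the other 4 cell types in colour. In the upper panel the naive points lie mostly on top over the proximal V, delta and J segments and are mixed with the others further out; in the lower panel no value exceeds 1.3.

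The gene identifiers gave all 60 J alpha segments, which let the cluster be read in 4 groups of 15 from the far end (Traj61 to Traj47) to the near end (Traj16 to Traj1). The median input was 0.2 in the first group and 1.0, 1.1 and 1.0 in the next 3. The naive 5hmC medians were 24.5, 25.7, 19.2 and 25, with no trend along the cluster. In Th1 cells they were 2.9, 7.2, 5.5 and 15.0, in Th2 cells 1.8, 5.5, 10.5 and 22.7, in iTreg cells 3.0, 5.8, 4.7 and 8.6, and in Th17 cells 1.8, 3.7, 5.4 and 9.1. The naive medians were thus near level across the cluster, whereas each of the other 4 libraries had its lowest median at the far end and its highest next to C alpha.

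The median log2 difference from naive moved with position, at -2.95, -1.98, -1.58 and -1.05 from far to near. At least 2-fold lower signal, by the mean of the 4 libraries, was seen in 15, 14, 8 and 8 of the 15 segments of each group, beside 14.6% of all areas. Spearman's rho between position and 5hmC across the 60 segments was 0.014 in naive, 0.606 in Th1, 0.687 in Th2, 0.532 in iTreg and 0.633 in Th17 cells, and 0.567 for Th17 input. Neighbouring segments are not separate measurements: of 59 neighbouring pairs, 1 had the same 5hmC value in naive cells and 7 to 12 in the other libraries. These correlations are across segments that share a library and fragments, and describe the cluster only. Runs of like values can be seen in the segment values, for example 6.3 at Traj47, Traj46, Traj45, Traj44 and Traj43 in Th2 cells.

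Single segments departed from their neighbours. Traj50 was at 53.2 in naive cells and at 1.5 to 3.0 in the others, and Traj52 at 32.2 against 1.0 to 3.0. In the first group Traj55 had 25.9 in iTreg and 24.5 in Th17 cells, and Traj48 had 14.3 and 35.8. Traj28 had 9.6 in naive, 39.7 in iTreg and 85.9 in Th17 cells. It was the only 1 of the 60 at least 2-fold above naive by the mean of the 4 libraries, beside 4.9% of all areas. These segments were picked after their values were seen, and each area is 60 to 65 bp long.

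**Figure D3:**
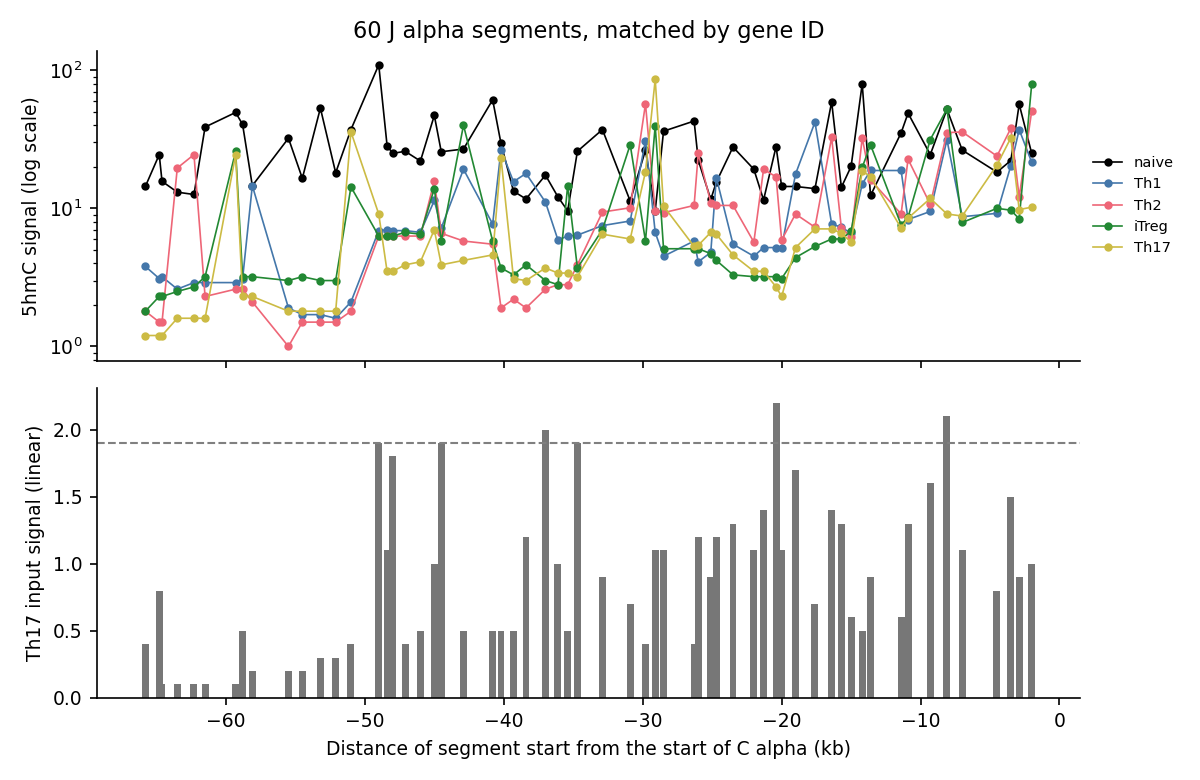
The 60 J alpha segments matched by gene identifier, against distance from the start of C alpha in kb: 5hmC signal in 5 libraries on a log scale (upper panel) and Th17 input on a linear scale with the flanking median of 1.9 dashed (lower panel). The naive line varies from 9.6 to 109.5 between single segments, with no trend along the cluster. The other 4 lines lie mostly lowest over the far group of 15, and input there is mostly between 0.1 and 0.5.

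Among V alpha segments the difference between naive cells and the others varied along the region. Ordered by position and divided into 3 groups of 24, the median log2 difference from naive was -0.23 in the distal, -0.52 in the middle and -1.61 in the proximal group, which lies nearest to the J segments. The flanking areas had -0.57 and all areas -0.17. At least 2-fold lower signal was found in 6 distal, 8 middle and 16 proximal segments, 24 in each group, beside 14.6% of all areas. The proximal group contains no segment with d or n in the name, but many of its segments are family counterparts of the duplicated copies, and 2 of them, Trav7-6 and Trav3-4, had an input of 0. The part of read placement in the proximal difference was not tested. With the filter on low values the middle group's median turned to 0.28, from the 1 member that passed, and the distal median came within 0.1 of 0 under several settings, so only the proximal difference held its size above 1 in every setting.

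The proximal V segments with the highest naive signal are described first, a choice that by itself favours values below naive in the other libraries. Trav18, the V segment 389.7 kb before C alpha, had 25.6 in naive, 1.6 in Th1, 2.1 in Th2, 10.7 in iTreg and 0.5 in Th17 cells. Tcra-V8, which RefSeq names Trav12-2, had 32.8 in naive, 6.4 in Th1, 1.3 in Th2, 2.8 in iTreg and 9.8 in Th17 cells. Trav10 had 29.0 in naive, 8.5 in Th1, 6.4 in Th2, 3.1 in iTreg and 5.2 in Th17 cells. In all 3 the naive library was the highest by at least 2-fold.

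The last V alpha segment, Trav23, had 9.1 in naive, 0.2 in Th1, 1.8 in Th2, 1.1 in iTreg and 0 in Th17 cells, a log2 difference of -3.78. Trav12-4 and Trav7-6 had log2 differences of -3.83 and -3.63, from naive values of 10.7 and 11.4. Trav7-5 did not share this order, with 8.3 in naive, 20.5 in Th1, 0.3 in Th2, 5.1 in iTreg and 0.7 in Th17 cells. Trav5-4 was the only proximal segment at least 2-fold above naive, by 1.11 on the log2 scale. Input in these 8 segments was between 0 and 0.8.

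The outermost V alpha segments shared no order of the libraries. Trav1 had 28.4 in naive, 13.9 in Th1, 10.3 in Th2, 11.7 in iTreg and 12.3 in Th17 cells. Trav2 had 18.7 in naive, 27.0 in Th1, 13.1 in Th2, 7.7 in iTreg and 21.4 in Th17 cells. Trav3-1 had 8.7 in naive, 4.6 in Th1, 22.0 in Th2, 11.7 in iTreg and 13.3 in Th17 cells. The naive library was highest at Trav1 only. Trav4-1, with an input of 0.7, had 1.2 in naive, 7.5 in Th1, 5.4 in Th2, 3.7 in iTreg and 6.7 in Th17 cells, and was the only member of the 91 at least 2-fold above naive in all 4 libraries. The 6 segments before the duplicated blocks had a median log2 difference of -0.03. The segments with d or n in the name had -0.42, at naive signals of 16.4 (Trav9d-1) and below. At such low values the difference can rest on the last decimal: Trav7d-5 counts as 2-fold lower with 0.2 in naive cells and 0 in the others.

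**Figure D4:**
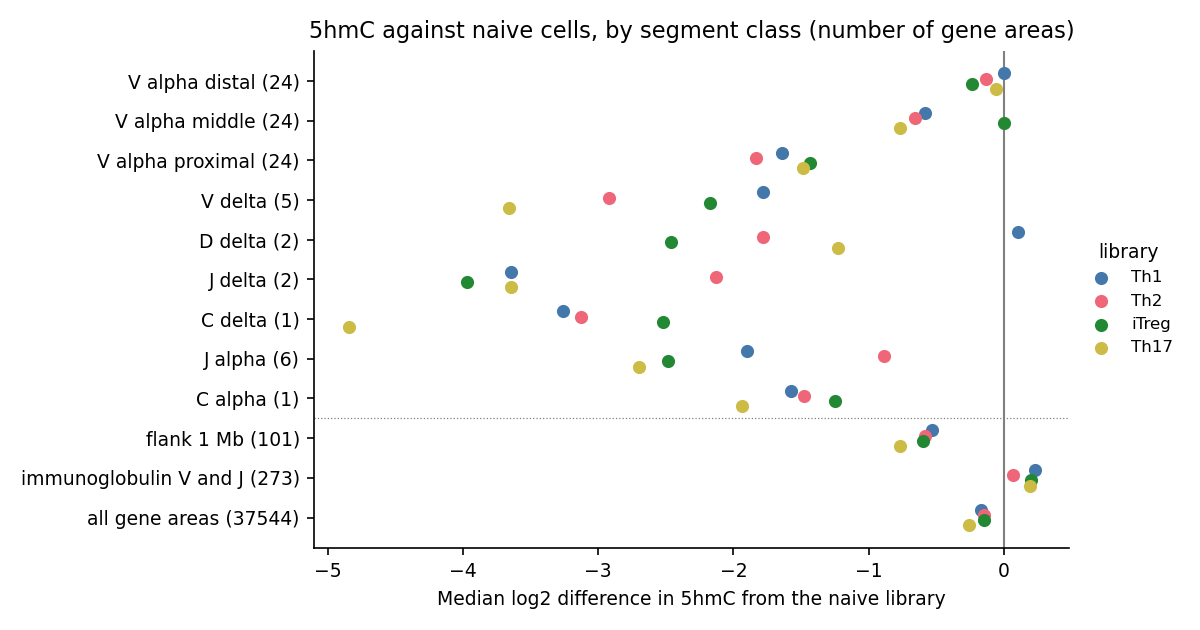
Median log2 difference in 5hmC between each of 4 libraries and the naive library (horizontal axis), by class of segment, with the number of areas in brackets; the vertical line marks 0 and each point is 1 library. C delta lies between -4.84 and -2.52, C alpha between -1.94 and -1.25, and the flanking areas between -0.77 and -0.53.

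Counts of members were read against all areas. Without a filter on low values, 45 of 91 members were at least 2-fold below naive in Th1 cells, 51 in Th2, 47 in iTreg and 53 in Th17 cells. The background shares of all areas were 15.5%, 14.9%, 14.4% and 23.6%, and the members' shares 49.5%, 56.0%, 51.6% and 58.2%. At least 2-fold above naive were 12, 8, 9 and 5 members, which are 13.2%, 8.79%, 9.89% and 5.49%, against 7.44%, 7.64%, 7.45% and 7.37% of all areas. Lower in all 4 libraries were 27 members (29.7%), against 5.27% of all areas. The 4 comparisons share 1 naive library and are not independent. With Th1 and Th2 cells alone, the median log2 difference was -3.19 for C delta, -2.89 for J delta, -1.97 for V delta, -1.78 for proximal V alpha, -1.12 for J alpha and -1.53 for C alpha, against -3.44, -3.35, -2.64, -1.61, -1.86 and -1.56 with all 4. The shares below naive exceeded the background in all 4 libraries. Those above naive lay nearer to it, over it in Th1, Th2 and iTreg cells and under it in Th17 cells.

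A filter on the mean over the 10 antibody libraries, of at least 3.31, let 17 of the 91 members through. That mean is carried by 5hmC, so a member could pass through the library in which it is high, and the counts after it support nothing on their own. They were 9, 10, 12 and 12 lower in Th1, Th2, iTreg and Th17 cells, beside 16.1%, 14.8%, 14.8% and 25.7% of all areas past the filter. Higher were 3, 2, 1 and 0, beside 4.38%, 4.9%, 4.56% and 4.66%. A plain order of the 5 libraries gave a smaller contrast: 40 of 91 members (44.0%) lay below naive in all 4 others, against 55.4% of flanking areas and 37.6% of all areas. By the mean of the 4 libraries, 45 of 91 members and 31 of 101 flanking areas were at least 2-fold lower, beside 14.6% of all areas. Neither difference in share was tested.

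The 5mC signal was low across the locus. The median member had 0.1 in naive cells and 0 in the other 4 libraries, against 0.9 to 1.2 over the flank. The highest value among the 91 members was 1.3 at Trav21/dv12, a V segment shared by both chains, in Th2 cells. Next were 1.2 at Trav2 in naive cells and 1.2 at Traj2 in Th2 cells. Among the J alpha segments under provisional names, Traj39 reached 2.8 and Traj38 reached 1.5 in naive cells. At 0 in all 5 5mC libraries were 26 of the 91, against 1110 of all 37544 areas. Because values move in steps of 0.1, ratios of 5mC in the locus are coarse.

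C delta showed the clearest 5mC contrast. Trdc had 0.6 in naive, 0.1 in Th1 and 0 in Th2, iTreg and Th17 cells, a log2 difference of -1.85. Trdv5 had 0.4 in naive, 0.1 in Th1, 0 in Th2 and iTreg, and 0.1 in Th17 cells, and Trdv2-1 had 0.4 in naive cells and 0 in the rest. Trac, in contrast, had 0.4 in naive, 0.2 in Th1 and Th2, 0.1 in iTreg and 0.2 in Th17 cells, a log2 difference of -0.69. All 4 were highest in naive cells, as in 5hmC.

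The 5mC medians of the other classes were near 0: 0 for distal and middle V alpha, D delta and J delta, -0.36 for proximal V alpha, and -0.44 for V delta and J alpha. Past the filter, 2 members were at least 2-fold below naive in Th1, 4 in Th2, 4 in iTreg and 2 in Th17 cells, beside 2.67%, 3.81%, 5.54% and 4.72% of all areas. Higher were 0, 2, 0 and 1, beside 2.68%, 1.84%, 1.6% and 1.81%. With 17 members past the filter these are counts of a few areas each, and they support nothing on their own.

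The comparison of the antibodies was the only one with more than 1 library on each side. In a limma fit over all areas, blocked by cell type and with libraries centred on the median area, a positive difference means that 5hmC stood higher among the areas of its library than 5mC did. Trac was higher in 5hmC by 2.20 on the log2 scale (SE 0.21, 5 of 5 cell types, limma adjusted p = 0.000245). Tcra as a whole was higher by 1.44 (SE 0.17, 5 of 5, limma adjusted p = 0.000522). The SE reflects how much the 5 cell types varied, and the part of DNA copy number in these differences was not tested.

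Of the 6 named J alpha segments, 4 were higher in 5hmC. Traj1 was higher by 2.89 (SE 0.39, 5 of 5 cell types, limma adjusted p = 0.000889), Traj5 by 2.08 (SE 0.37, 5 of 5, limma adjusted p = 0.00289) and Traj47 by 1.88 (SE 0.52, 5 of 5, limma adjusted p = 0.0211). Traj2 was higher by 1.66 (SE 0.56, 4 of 5, limma adjusted p = 0.0447), and this call was lost without the naive, Th1, iTreg or Th17 cells. Without the iTreg and Th17 cells together, the calls of Traj47 and Traj2 were lost and Trav10 was called. With a pseudocount of 1 in place of 0.2, the calls of Tcra, Traj5, Traj47 and Traj2 were lost, and those of Traj1 and Trac remained. These 6 of the 17 members past the filter were called, beside 10.1% of all areas. None was lower in 5hmC, beside 7.62% of all areas, and 8 of the 17 had an unadjusted p under 0.05. The filter mean is carried by 5hmC, so calls among these 17 favour higher 5hmC and their counts support nothing on their own. With all 91 members fitted, the same 6 were higher, beside 9.61% of areas, and 28 were lower, beside 16.1%.

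The lower calls without the filter were 9 distal, 13 middle and 2 proximal V alpha segments, Trdv2-1, Trdv3, Trdd1 and Trdj2. Many of these have both marks at or near 0, and since the median area has more 5hmC signal than 5mC signal, an area at 0 in both comes out as lower in 5hmC. Trav3d-2, at 0 in all 12 libraries, has a difference of -3.73 for that reason. Trdc was not called, at -0.35, with 0.89 in naive and -1.85 in Th17 cells. Among the 60 J alpha segments by gene identifier, fitted without the filter, 36 were higher in 5hmC and 0 lower, beside 9.61% and 16.1% of all areas. From the far to the near group of 15 they were 2, 8, 11 and 15, and the median difference was 0.29, 1.15, 1.5 and 2.21. Of the 60, 41 were at 0 in 5mC in Th2, 45 in iTreg and 43 in Th17 cells. In each 5mC library, 41 to 54 of the 59 neighbouring pairs had the same value, so these calls are not separate.

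In Th17 cells, where input was measured, the signal could be set against the DNA present. These ratios rest on the label Th17, which the interleukin genes put in doubt, so they are also given with the library labelled iTreg over the same input. For the areas with an input of at least 0.5, the ratio of 5hmC to input had a median of 4.69 over 32 members and 7.55 over 98 flanking areas, and quartiles of 1.66 and 9.36 in members against 4.6 and 10.0 in the flank. The ratio was 7.26 at Trac and 12.1 over the Tcra span, and 6.54 at the median of 45 J alpha segments by gene identifier. The ratio of 5mC to input had a median of 0.1 over members, 0.087 at Trac and 0.458 over the flank, with quartiles of 0 and 0.2 in members against 0.308 and 0.662. Per unit of input, 5hmC in the locus thus overlapped the flank's range, while the upper quartile of 5mC in members lay below the lower quartile of the flank. The ratio was not formed for other receptor loci. There the median Th17 5mC was 0.1 at a median input of 1.1 over immunoglobulin V and J areas. Over beta V segments it was 0.1 at 0.75. Low 5mC per input is therefore not shown to be particular to this locus. With the libraries labelled iTreg, the 5hmC ratio had a median of 5.99 in members and 10.1 in the flank and was 11.7 at Trac, and the 5mC ratio had a median of 0.1 in members, 0.0435 at Trac and 0.528 in the flank. Across the 89 single segments, Spearman's rho with Th17 input was 0.66 for Th17 5hmC and 0.81 for iTreg 5hmC, over areas that share each library. Over all areas it was 0.57 and 0.61, and within the 60 J alpha segments 0.29 and 0.23. No such ratio could be formed for the delta segments, whose input was at most 0.2.

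Segments of the other antigen receptor loci gave a further reference. The 273 immunoglobulin V and J areas, which T cells do not join, had a median input of 1.1 and a median log2 difference in 5hmC of 0.21. The 34 V segments of the T cell receptor beta locus, which is joined, had an input of 0.75 and a difference of -0.72. The 13 J segments of the beta locus had an input of 0.3 and a difference of -0.74, with medians above naive in Th2 and iTreg cells. The 13 segments of the gamma locus, which is also joined in T cells, had an input of 0.9 and a difference of -0.10. The 91 alpha and delta members had an input of 0.2 and a difference of -0.96. These other sets all had a higher median input than the alpha and delta members, and the beta J segments came nearest, at 0.3. The immunoglobulin 5mC medians, 0.1 to 0.2 in the 5 libraries, compare with 0 to 0.1 in the members. None of these differences was tested, since the groups hold 1 library each.

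Genes that act on this locus were described from 3 lists, each over the mean of the 4 libraries against naive. Among 15 genes of V(D)J recombination and end joining the median log2 difference in 5hmC was -0.61, with 2 at least 2-fold lower and 0 higher. That is near the 14.6% of all areas lower and 4.9% higher on the same measure. The 2 were Lig4, the ligase that seals the joins (-1.34), and Xrcc6, which encodes the Ku70 end-binding protein (-1.27). Rag1 and Rag2, the recombinase itself, had -0.90 and -0.66, and Atm, a kinase activated by DNA breaks, had 0.28. Among 6 partners of the receptor the median was -0.86, with Cd3e (-1.73) and Cd3g (-1.53), both CD3 chains, at least 2-fold lower and 0 higher, beside the same shares.

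Of 13 factors that bind the Tcra enhancer or organise the locus, 8 were at least 2-fold lower and 0 higher, beside 14.6% and 4.9% of all areas, with a median of -1.23. Lef1, which binds the enhancer together with Ets and Runx factors, had 127.9 in naive and 22.2 to 40.9 in the others (-1.91). Rad21, a cohesin subunit, had 43.8 in naive and 11.0 to 15.5 in the others (-1.77). Tcf12, an E protein, had -0.18.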

How the data were processed

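Values were used as deposited: the signal deposited by the authors is a mean over each gene area, rounded to 1 decimal. CASAVA 1.7.0 and build mm9 were used, per the submitters' processing notes; with read placement, duplicate removal and scaling not given in the sources used here, depth and counting error are unknown. Titles number the samples, and this number links each column to its library. Of 37752 lines, 208 repeats of a symbol were dropped, keeping the one with the highest mean. Log2 values were taken after adding 0.2 (5th percentile of non-zero values), which understates changes of low areas; the filter was a mean of at least 3.31 (25th percentile). A difference of 2-fold, a log2 of 1, was a rule of size without a test. The antibodies were compared with limma 3.58.1 (R 4.3.3; empirical Bayes with trend; a call needed an adjusted p, by Benjamini-Hochberg, under 0.05 with a log2 difference of 1 or more), tested on simulated data. Other steps used Python 3.11.15, numpy 2.4.6, pandas 2.3.3, scipy 1.17.1 and matplotlib 3.10.9.

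The members and lists were chosen with earlier results of these data known, and 1 listed gene is not reported here. Named were all members of classes of 6 or fewer, the ends and extremes of larger classes, the neighbours of the locus and the extremes of each list; others are said to be picked later. Alternatives changed the pseudocount, scaling, filter, fold, flank, segment length, repeats and block, and left out libraries; matching by gene identifier, leaving out iTreg and Th17 together and using iTreg signal over Th17 input were added after seeing the data.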

Additional observations from a re-analysis of the deposited data

How the results depend on the processing

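With 1 library per group and rounded values, low areas limit what can be read. Median-ratio scaling moved 5hmC differences from naive by 0.15 to 0.3 and 5mC differences by -0.02 to 0.25 on the log2 scale. The limma comparison was blocked by cell type, on the premise that both libraries of a cell type carry the same DNA. Without that block it made the same counts of calls, 6 higher and 0 lower.

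Distal V alpha 5hmC (-0.23) was -0.09 with a pseudocount of 1, -0.04 with median-ratio scaling, 0 by gene identifier, -0.01 without iTreg and Th17 together, and -0.31 to -0.05 without one library. Middle V alpha (-0.52) was -0.06 with a pseudocount of 1 and 0.28 with the filter. Proximal V alpha (-1.61) was -1.17, -1.42, -2.68 and -2.00 with a pseudocount of 1, median-ratio scaling, the filter and gene identifiers. J delta (-3.35) was -2.19 with a pseudocount of 1.

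For 5mC, pseudocounts of 1 and 0.1 gave -0.08 and -0.59 (proximal V alpha), -0.10 and -0.75 (V delta), -0.64 and -2.56 (C delta) and -0.10 and -0.75 (J alpha); C alpha was -0.25 with 1. V delta was -0.40 with median-ratio scaling, -0.58 without iTreg and Th17 together, and -0.58 to -0.39 without one library; distal V alpha was -0.07 to 0.00.

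Without the filter, 5hmC counts were 45, 51, 47 and 53 lower and 12, 8, 9 and 5 higher (Th1, Th2, iTreg, Th17), and 5mC counts 11, 16, 14 and 8 lower and 4, 5, 1 and 2 higher. By the mean of the 4 5mC libraries, 6 of 91 members were lower and 0 higher, beside 1203 and 402 of 37544 areas. A 3-fold rule gave 0 higher in 5hmC for Th1 and Th2, 7 lower for iTreg, and in 5mC 1, 2, 1 and 0 lower and 1 (Th2) and 0 (Th17) higher. A pseudocount of 1 gave 1 higher in 5hmC for Th2, and in 5mC 0 lower in all 4, with 1 (Th2) and 0 (Th17) higher. A pseudocount of 0.1 gave 4, 8, 10 and 8 lower in 5mC, and median-ratio scaling 1, 2, 2 and 0. Weighted by length, mean input was 37.21%, 15.63% and 10.62% of the flank for distal V alpha, middle V alpha and V delta, and distal V alpha had 5.26% by gene identifier. With the libraries labelled iTreg in place of Th17, 5hmC per input at Trac was 11.7 in place of 7.26, and 5mC per input 0.04 in place of 0.09. With a pseudocount of 1 limma called 2 members higher (Traj1 and Trac), and without the filter 28 lower. The causes were not tested, except that the filter leaves fewer members.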
